A study of Homo sapiens with 18 samples.

Results

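G2 and mitosis genes encode the proteins that take a dividing cell from the end of DNA replication through the separation of its chromosomes and its cytoplasm. The 45 members were taken by name: every array spot that is no control and carries the name of a member was used, on all 18 arrays. They are 45 of 36204 gene names and 57 of 50599 probes, with 34 members on 1 probe and 11 on more. The cells were HT29, a human colorectal cancer line, and HTOXAR3, a subline that the authors made from HT29 by keeping it in rising amounts of OXA (oxaliplatin), a platinum drug that binds DNA. Each line was measured untreated, after 24 h with OXA (10 µM for HT29, 30 µM for HTOXAR3), and after 24 h with the same dose of OXA together with 10 µM Curcumin, a polyphenol of turmeric. Each of these 6 groups had 3 biological replicates with 1 one-colour array each, which measures the RNA of a whole culture. HTOXAR3 comes from 1 parental line, so it stands for 1 resistant subline. Since the lines received different OXA doses, treated HT29 and HTOXAR3 differ in dose as well as in line, and cells given Curcumin without OXA were not analysed here.

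In G2, cyclin B binds the kinase CDK1, CDC25 phosphatases switch the pair on, and the transcription factor FOXM1 keeps many genes of this phase active. Kinases, motors and kinetochore proteins then build the spindle and attach the chromosomes, while the spindle checkpoint holds back the anaphase-promoting complex (APC/C) until every chromosome is attached. In many proliferating cells, colorectal tumour cells among them, these transcripts are scarce in G1 and plentiful in G2, and promoter elements bound by the MuvB and NF-Y complexes take part in that timing.

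Values are log2 intensities after background correction and quantile normalization, and the probe with the highest mean stands for a gene. A member is called higher or lower where limma's adjusted p (Benjamini-Yekutieli, BY) is below 0.05 and the fold change is above 1.2. A change is the log2 difference of 2 group means of 3 arrays each, with limma's standard error (SE), and a value in brackets after a left-out array is the change without that array. All 45 members were well above background on all 18 arrays, at log2 intensities between 8.99 and 15.5. No correlation between arrays of 1 group was below 0.996 over all gene names. The range of levels between genes keeps this value high, so it does not show how far replicates of 1 gene differ. INCENP ran from 10.98 to 11.65 in untreated HT29, and MKI67 from 11.89 to 12.5 in HT29 after OXA. Of the markers fixed for the cells, 9 of 11 colorectal epithelium markers were well above background on every array, with CDX2 on 10 arrays and GPA33 on 9. Of 9 markers of fibroblasts, endothelium and blood, 3 (VWF, PTPRC and CD14) were well above background on every array and COL1A2 on none. EPCAM had group means from 16.2 to 16.6, while VIL1 had means of 12.08, 13.13 and 13.12 in HT29 and 10.5, 10.73 and 10.73 in HTOXAR3, and LGALS4 of 14.97, 15.15 and 15 and of 12.9, 12.9 and 12.29, in the order untreated, OXA, OXA plus Curcumin. In the same order CDH1 had 13.37, 13.61 and 13.86 in HT29 and 13.34, 13.35 and 13.66 in HTOXAR3. KRT19 had 17.73, 17.83 and 18.04 in HT29 and 17.85, 17.81 and 18.15 in HTOXAR3. In HTOXAR3, LGALS4, CDX1, CDX2 and GPA33 had lower means with Curcumin than with OXA alone. KRT18, the most abundant of the 11, had group means from 18.33 to 18.57, so it weighs most in their sum. The log2 of the summed intensity of the 11 was 19.49 to 19.55, 19.63 to 19.68 and 19.66 to 19.75 in HT29. In HTOXAR3 it was 19.54 to 19.58, 19.54 to 19.56 and 19.74. CD14, the most abundant of the 9, had means of 11.17, 10.28 and 10.78 in HT29 and 11.51, 10.94 and 10.97 in HTOXAR3, in the same order. COL1A1 and VWF had higher means after OXA in both lines. Those of COL1A1 were 5.99 untreated and 6.45 after OXA in HT29, and 6.21 and 6.47 in HTOXAR3. Those of VWF were 7.54 and 7.72 in HT29, where the arrays overlapped, and 7.42 and 7.64 in HTOXAR3. The log2 of the summed intensity of these 9 was 11.55, 11.66 and 11.51 untreated, 10.98, 11.02 and 10.99 after OXA, and 11.20, 11.22 and 11.53 after OXA plus Curcumin in HT29, and 11.87, 11.83 and 11.79 untreated, 11.45, 11.39 and 11.46 after OXA, and 11.46, 11.43 and 11.39 after OXA plus Curcumin in HTOXAR3. Their part in the members' values was not tested. The arrays came on 3 slides, and slide 1 held only replicate 1 of untreated HT29 and of HT29 after OXA, so values within each slide stand beside the pooled ones.

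The members as a group stood lowest after OXA plus Curcumin and highest in untreated cells. Taken as the deviation from each gene's own mean over the 18 arrays, the members' median on the 3 arrays was 0.24, 0.23 and 0.27 in untreated HT29, -0.11, -0.09 and -0.07 after OXA, and -0.35, -0.24 and -0.26 after OXA plus Curcumin. In HTOXAR3 that median was 0.33, 0.32 and 0.36 untreated, 0.04, 0.04 and 0.06 after OXA, and -0.17, -0.20 and -0.26 after OXA plus Curcumin. Within each line, no array of 1 group overlapped an array of another in this median. A lower value in such bulk RNA may come from fewer cells in G2 and mitosis or from less RNA in each of them, and these cannot be told apart here.

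**Figure D1:**
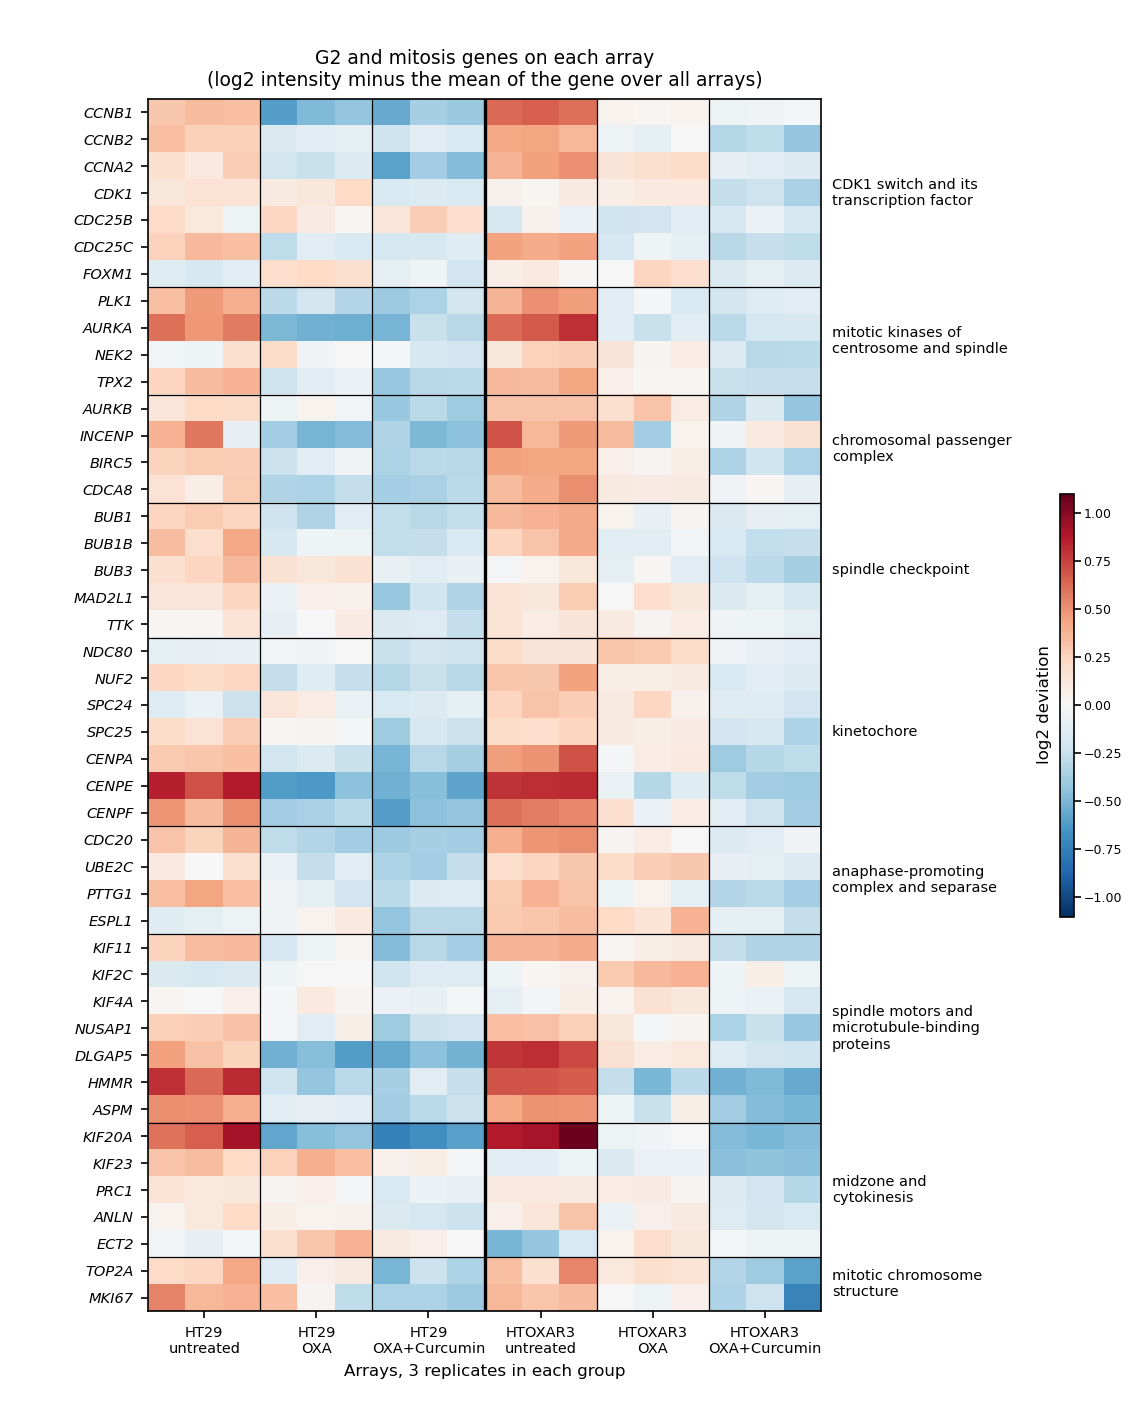
Log2 intensity of each member as its deviation from that gene's mean, for 45 members (vertical, grouped by role) on 18 arrays (horizontal, grouped by line and treatment). Most members run from above their mean in untreated cells to below it after OXA plus Curcumin, while ECT2 lies above its mean after OXA in both lines and KIF2C in HTOXAR3.

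After OXA alone, 24 of 45 members were lower and 2 higher in HT29 (limma, BY), where 8.3% of all gene names were called lower and 8.94% higher. The median log2 change over members was -0.39, and the median over all gene names lay between -0.01 and 0.01 in every comparison. In HTOXAR3, 22 members were lower and 2 higher, beside 6% and 6.27% of all gene names, with a member median of -0.27. Among the 17455 gene names that were well above background on every array, as all members are, the shares called lower were 16.5% in HT29 and 11.9% in HTOXAR3. The members called lower by more than 2-fold were CENPE, KIF20A, AURKA and HMMR in HT29 and HMMR in HTOXAR3. Within slides 1, 2 and 3 the HT29 member median was -0.37, -0.35 and -0.34, and within slides 2 and 3 the HTOXAR3 median was -0.24 and -0.34. With slide as a block these medians were -0.39 and -0.29.

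The addition of Curcumin, OXA plus Curcumin against OXA, asks what Curcumin does on top of OXA. It left 0 members higher and 9 lower in HT29 by limma (BY), beside 3.88% and 3.22% of all gene names, and the member median was -0.18. At an unadjusted p below 0.05, 28 members lay below 0 and 1 above, beside 12.1% and 11.4% of all gene names, and BH (Benjamini-Hochberg) adjustment called 10 lower and 0 higher, beside 4.69% and 5.29%. In HTOXAR3, 23 members were lower and 0 higher by limma (BY), beside 5.49% and 5.14% of all gene names, with a median of -0.29. There 39 members lay below 0 at an unadjusted p below 0.05 and 0 above, beside 14.3% and 12.4% of all gene names, and BH called 26 lower and 0 higher, beside 7.03% and 6.33%. Of the gene names well above background on every array, 6.58% were lower in HT29 and 11% in HTOXAR3. The HT29 count was 4 with an offset of 0 and 7 with one of 16. It was 0 by limma (BY) where only the groups compared were fitted, with 9 lower by BH and 27 below 0 at an unadjusted p below 0.05. It was 3 without OXA plus Curcumin replicate 1, without OXA replicate 2 or without OXA replicate 3, and 4 without OXA plus Curcumin replicate 3. Calls over all gene names in HT29 fell as well. With the settings used here limma (BY) called 1164 lower and 1406 higher. With an offset of 0 it called 867 and 1138, and with one of 16 981 and 1247. Where only the groups compared were fitted, it called 148 lower and 410 higher. The HTOXAR3 count was 15 without OXA plus Curcumin replicate 3. Within slides 2 and 3 the member median was -0.18 and -0.15 in HT29 and -0.27 and -0.31 in HTOXAR3, and with slide as a block it was -0.17 and -0.29.

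The combination, OXA plus Curcumin against untreated cells, had the most calls: 33 of 45 members were lower and 0 higher in HT29 by limma (BY), beside 9.7% and 10.1% of all gene names, with 38 members below 0 and 0 above at an unadjusted p below 0.05, beside 18% and 17.5%, and the same 33 called lower and 0 higher by BH, beside 11.5% and 11.7%. In HTOXAR3, 37 were lower and 1 (ECT2) was higher, beside 9.34% and 9.3% of all gene names. Member medians were -0.53 and -0.56. Of the gene names well above background on every array, 19.5% and 18.4% were lower. Within slides 2 and 3 the member median was -0.55 and -0.53 in HT29 and -0.53 and -0.58 in HTOXAR3, and with slide as a block it was -0.53 and -0.57. The OXA response, the addition of Curcumin and the combination of 1 line share arrays, so their values are set side by side below and not correlated.

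Quantile normalization gives every array the same distribution, and another scaling moved the median over all gene names more than that over the gene names well above background. With background-corrected intensities scaled to the 75th percentile instead, the median over all gene names was -0.33 after OXA in HT29 and -0.23 in HTOXAR3, and -0.27 and -0.22 in the combination. The members' medians were then -0.35, -0.21, -0.56 and -0.49. Relative to that shift, the median member stood -0.03 and 0.01 from the median over all gene names after OXA in HT29 and HTOXAR3, and -0.29 and -0.28 in the combination. Among the gene names well above background on every array the medians were -0.08, -0.05, -0.09 and -0.07, and the members stood at -0.28, -0.17, -0.46 and -0.43 relative to these. In HT29 after OXA, that scaling called 2906 gene names higher and 12314 lower, against 3235 and 3004 with quantile normalization, and in the HT29 combination 3019 and 5470 against 3664 and 3511. With the scanner software's processed signal scaled in the same way, the medians over all gene names were -0.10 and -0.19 after OXA and -0.15 and -0.19 in the combination.

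What the members share beyond their names was looked for in their promoters. Of the 45 members, 38 had an entry among 27305 genes in the RefSeq promoter table (GRCh38.p14), which runs from 250 bases before to 50 after a gene's start, and the furthest 5′ start was taken where a gene had several. No entry was given for TTK, UBE2C, BIRC5, FOXM1, TPX2, AURKA and BUB3. On either strand, TTTGAA or TTTAAA, forms of the cell cycle homology region (CHR) bound by MuvB complexes, stood in 81.6% of the members' promoters and in 24.4% of all promoters. TTTGAA alone stood in 68.4% against 15.5%, and TTTAAA, which reads the same on both strands, in 34.2% against 12.4%. CCAAT, the box bound by NF-Y, stood in 78.9% of the members' promoters and 35.7% of all, and at least 2 of them in 52.6% against 11.3%. A CHR form together with CCAAT stood in 65.8% against 9.55%. The 19 promoters of members called lower after OXA in both lines held a CHR form in 84.2% and the 17 of members called lower in neither in 76.5%, and CCAAT in 78.9% and 76.5%. TTTGAA stood in 63.2% and 70.6% of the promoters of these sets, TTTAAA in 47.4% and 17.6%, at least 2 CCAAT in 63.2% and 35.3%, and a CHR form together with CCAAT in 68.4% and 58.8%. The difference between the sets was not tested. These are matches of letters, and binding was not measured.

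The promoters of 9 members are shown because those genes carry the range of responses described below, from deep falls after OXA (CENPE, KIF20A, HMMR) through falls with Curcumin (CDK1, TOP2A) to rises after OXA (KIF2C, ECT2). Each run is the 150 bases directly before the RefSeq start (GRCh38.p14), read 5′ to 3′ on the gene's strand, with both CHR forms and CCAAT, on either strand, in capitals, so that ATTGG stands for CCAAT on the other strand. Matches in the rest of the window are not shown, and the matches of HMMR include CCAAT boxes on both strands that overlap each other. The plus-strand runs are CCNB1 at chr5:69167000-69167149, PLK1 at chr16:23678739-23678888, HMMR at chr5:163460482-163460631, KIF20A at chr5:138178962-138179111, CDK1 at chr10:60778181-60778330, KIF2C at chr1:44739687-44739836 and ECT2 at chr3:172750576-172750725. The minus-strand runs are CENPE at chr4:103198344-103198493 and TOP2A at chr17:40417897-40418046.
CCNB1: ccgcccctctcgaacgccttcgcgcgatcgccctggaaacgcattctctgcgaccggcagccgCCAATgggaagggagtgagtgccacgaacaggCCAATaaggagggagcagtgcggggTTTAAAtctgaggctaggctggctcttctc
PLK1: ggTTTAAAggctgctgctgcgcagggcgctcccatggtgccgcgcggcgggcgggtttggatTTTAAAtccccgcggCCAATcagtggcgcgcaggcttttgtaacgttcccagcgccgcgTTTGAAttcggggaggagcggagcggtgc
CENPE: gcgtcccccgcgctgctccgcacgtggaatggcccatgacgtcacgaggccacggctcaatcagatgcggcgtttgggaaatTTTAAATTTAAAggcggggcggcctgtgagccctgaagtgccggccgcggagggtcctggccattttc
HMMR: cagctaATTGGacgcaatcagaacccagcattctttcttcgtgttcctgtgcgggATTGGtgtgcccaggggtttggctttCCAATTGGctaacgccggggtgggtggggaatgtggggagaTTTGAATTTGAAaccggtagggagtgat
KIF20A: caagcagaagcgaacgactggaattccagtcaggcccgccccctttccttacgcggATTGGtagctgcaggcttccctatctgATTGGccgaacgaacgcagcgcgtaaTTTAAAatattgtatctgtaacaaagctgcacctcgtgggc
CDK1: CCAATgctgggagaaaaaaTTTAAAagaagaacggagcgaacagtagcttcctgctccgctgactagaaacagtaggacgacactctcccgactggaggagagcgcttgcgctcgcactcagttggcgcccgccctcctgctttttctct
TOP2A: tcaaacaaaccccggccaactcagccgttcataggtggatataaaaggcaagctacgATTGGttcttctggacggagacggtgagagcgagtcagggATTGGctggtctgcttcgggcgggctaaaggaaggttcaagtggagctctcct
KIF2C: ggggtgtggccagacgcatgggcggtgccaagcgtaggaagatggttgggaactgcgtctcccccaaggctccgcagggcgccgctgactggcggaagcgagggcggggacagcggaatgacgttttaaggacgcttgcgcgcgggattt
ECT2: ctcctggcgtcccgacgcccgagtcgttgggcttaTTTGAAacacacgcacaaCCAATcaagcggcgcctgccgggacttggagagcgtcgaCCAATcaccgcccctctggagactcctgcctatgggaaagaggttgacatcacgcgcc

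Between the untreated lines 4 of 45 members were higher and 1 lower in HTOXAR3 (limma, BY), beside 6.81% and 5.96% of all gene names, and the median log2 difference was 0.12. Of the gene names well above background on every array, 12.8% were called higher and 11.4% lower. At an unadjusted p below 0.05, 20 members lay above 0 and 3 below, beside 14.6% and 14.4% of all gene names, and BH called 4 higher and 2 lower, beside 8.07% and 7.48%. Within slides 2 and 3 that median was 0.09 and 0.09, and with slide as a block 0.09. The 5 called were DLGAP5, SPC24, ESPL1, CCNB1 and KIF23, at log2 differences of 0.43, 0.42, 0.41, 0.31 and -0.39. Without untreated HT29 replicate 3 the count was 8, with CCNA2 (0.31), CDCA8 (0.31) and KIF20A (0.33) added. The calls of CCNA2 (0.30) and CDCA8 (0.29) were also added without untreated HTOXAR3 replicate 1, and that of ECT2 (-0.42) without replicate 3. CCNA2 was also called with slide as a block, CDCA8 with 75th percentile scaling, and ECT2 with an offset of 50 and 75th percentile scaling or where dim probes were filtered out. Fits of only the groups compared called 5 members here, 21 after OXA in each line, 14 with Curcumin in HTOXAR3, and 31 and 34 in the combination. The calls that ended in these fits are not named singly below. Over all gene names these fits called fewer in each of these comparisons. Between the untreated lines they called 1814 higher and 1538 lower, against 2465 and 2158 in the fit of all arrays.

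The CDK1 switch that starts mitosis has 7 members, the cyclins CCNB1, CCNB2 and CCNA2, the kinase CDK1, the phosphatases CDC25B and CDC25C, and FOXM1. After OXA, 4 of the 7 were lower in each line, the same 4 (CCNB1, CCNB2, CCNA2 and CDC25C), with median log2 changes of -0.38 in HT29 and -0.27 in HTOXAR3. With Curcumin 3 and 4 were lower in HT29 and HTOXAR3, and in the combination 5 in each. CCNB1, the cyclin that carries CDK1 into mitosis, gave log2 intensities in HT29 of 14.09, 14.14 and 14.13 untreated, 13.19, 13.31 and 13.36 after OXA, and 13.24, 13.43 and 13.39 after OXA plus Curcumin. Those of CCNB1 in HTOXAR3 were 14.42, 14.45 and 14.40 untreated, 13.83, 13.82 and 13.83 after OXA, and 13.74, 13.76 and 13.78 after OXA plus Curcumin. In both lines the 3 untreated arrays lay above the 6 treated ones, and the treated groups overlapped in HT29, while in HTOXAR3 those with Curcumin lay just below those with OXA alone. The group means were 14.12 ± 0.03 and 13.29 ± 0.09 (SD, n = 3) in HT29 before and after OXA, and 14.43 ± 0.03 and 13.82 ± 0.01 in HTOXAR3. The log2 change of CCNB1 after OXA was -0.83 in HT29 and -0.60 in HTOXAR3 (SE 0.05, limma BY adjusted p 6.21e-08 and 5.1e-06), and 0.07 and -0.06 on the addition of Curcumin, neither called. A second probe of CCNB1 was called lower after OXA at -0.42 in HT29 and -0.38 in HTOXAR3. With Curcumin that probe gave -0.24 in HT29, not called, and was called lower in HTOXAR3 at -0.46. The promoter run of CCNB1 carries 2 CCAAT boxes and 1 TTTAAA. CCNB2, the other B-type cyclin, changed by -0.41 and -0.46 after OXA, and fell further with Curcumin in HTOXAR3 (-0.29), where that call was lost without OXA plus Curcumin replicate 3 (-0.24). CDC25C, a phosphatase that activates CDK1, changed by -0.50 and -0.55 after OXA.

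CDK1 itself, the kinase at the centre of the switch, behaved otherwise. Its log2 intensities in HT29 were 13.17, 13.21 and 13.20 untreated, 13.15, 13.17 and 13.27 after OXA, and 12.88, 12.90 and 12.88 after OXA plus Curcumin. On the HTOXAR3 arrays CDK1 gave 13.10, 13.07 and 13.15 untreated, 13.12, 13.16 and 13.16 after OXA, and 12.79, 12.82 and 12.69 after OXA plus Curcumin. The untreated and OXA arrays overlapped in both lines, and the 3 arrays with Curcumin lay below all of them. CDK1 changed by -0.31 in HT29 and -0.38 in HTOXAR3 on the addition of Curcumin (SE 0.04, limma BY adjusted p 0.00153 and 0.000132), and gave 0.01 and 0.04 after OXA, neither called. A second, dimmer probe of CDK1 gave -0.23 and -0.25 on the addition of Curcumin and was not called, and with the mean of all probes the HT29 call was lost. After OXA that probe gave -0.18 and -0.18, neither called.

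FOXM1, the transcription factor of G2 genes, gave log2 intensities in HT29 of 11.96, 11.92 and 11.97 untreated, 12.29, 12.32 and 12.27 after OXA, and 11.99, 12.05 and 11.89 after OXA plus Curcumin. FOXM1 in HTOXAR3 gave 12.17, 12.20 and 12.11 untreated, 12.10, 12.33 and 12.28 after OXA, and 11.94, 12 and 11.95 after OXA plus Curcumin. In HT29 the 3 OXA arrays stood above all others and the other 2 groups overlapped, while in HTOXAR3 the 3 arrays with Curcumin were the lowest and the other groups overlapped. FOXM1 rose by 0.34 after OXA in HT29 (limma BY adjusted p 0.00211), where the cyclins above fell, and its change in HTOXAR3 was 0.08, not called. It fell with Curcumin in both lines, by log2 changes of -0.32 and -0.27. Those calls of FOXM1 were lost in HT29 without OXA replicate 2 (-0.30) or OXA plus Curcumin replicate 3 (-0.27), and in HTOXAR3 without OXA replicate 2 or 3 (-0.22 and -0.25) or OXA plus Curcumin replicate 1, 2 or 3 (-0.26, -0.29 and -0.26), and there with an offset of 0 or 16.

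CCNA2, the cyclin of S phase and G2, was lower in both steps, at -0.38 and -0.27 after OXA in HT29 and HTOXAR3 and at -0.28 and -0.29 on the addition of Curcumin. In the combination CCNA2 changed by -0.67 and -0.56. Its OXA call in HTOXAR3 was lost without untreated replicate 2 or 3 (-0.27 and -0.25) or OXA replicate 1, 2 or 3 (-0.26, -0.27 and -0.29), and with 75th percentile scaling or an offset of 0 or 16. Its Curcumin call was lost in HT29 without OXA replicate 1 or 3 (-0.29 and -0.26) or OXA plus Curcumin replicate 1 or 3 (-0.23 and -0.29), and with an offset of 0 or 16. In HTOXAR3 it was lost without OXA replicate 2 or 3 (-0.29 and -0.28) or OXA plus Curcumin replicate 2 or 3 (-0.29 and -0.28), and with an offset of 0. CDC25B, a phosphatase that acts early at the centrosome, was called in no comparison, with log2 changes of 0.02 and -0.12 after OXA and 0.11 and -0.08 in the combination.

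The mitotic kinases of the centrosome and spindle have 4 members, of which AURKA, PLK1 and TPX2 were lower after OXA in both lines, with medians over the 4 of -0.57 and -0.45. In the combination 3 were lower in HT29 and all 4 in HTOXAR3. AURKA, the Aurora kinase of the spindle poles, gave log2 intensities in HT29 of 13.26, 13.13 and 13.23 untreated, 12.16, 12.13 and 12.12 after OXA, and 12.14, 12.41 and 12.35 after OXA plus Curcumin. AURKA in HTOXAR3 gave 13.28, 13.33 and 13.46 untreated, 12.53, 12.41 and 12.54 after OXA, and 12.36, 12.46 and 12.48 after OXA plus Curcumin. The untreated arrays of each line stood well above the treated ones, and the 2 treatments overlapped in both lines. Its log2 change after OXA was -1.07 in HT29 and -0.86 in HTOXAR3 (SE 0.07, limma BY adjusted p 9.68e-08 and 2.49e-06), and that on the addition of Curcumin 0.16 and -0.06, neither called.

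PLK1, the kinase that matures centrosomes and promotes mitotic entry, gave log2 intensities in HT29 of 11.07, 11.21 and 11.14 untreated, 10.45, 10.54 and 10.42 after OXA, and 10.34, 10.39 and 10.54 after OXA plus Curcumin. PLK1 in HTOXAR3 gave 11.11, 11.24 and 11.20 untreated, 10.62, 10.72 and 10.57 after OXA, and 10.54, 10.60 and 10.62 after OXA plus Curcumin. Untreated arrays again stood above treated ones without overlap, and the 2 treatments overlapped. PLK1 changed by -0.67 and -0.55 after OXA (SE 0.06, limma BY adjusted p 3.74e-06 and 6.49e-05), and its promoter run holds both CHR forms and CCAAT. TPX2, which activates AURKA on spindle microtubules, changed by -0.46 and -0.35 after OXA, and with Curcumin by -0.28 in HTOXAR3, a call lost without OXA replicate 1 (-0.27) or OXA plus Curcumin replicate 3 (-0.28) and with 75th percentile scaling. NEK2, a kinase of centrosome separation, gave 0.02 and -0.13 after OXA, neither called, and was lower in the HTOXAR3 combination (-0.46).

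The chromosomal passenger complex corrects faulty attachments and has 4 members, AURKB, its kinase, with INCENP, BIRC5 and CDCA8. After OXA 3 were lower in HT29 and 2 in HTOXAR3, with Curcumin 1 and 2, and in the combination 4 and 3. BIRC5 (survivin), which brings the complex to centromeres, gave log2 intensities in HT29 of 15.30, 15.34 and 15.33 untreated, 14.82, 14.94 and 15.02 after OXA, and 14.71, 14.76 and 14.75 after OXA plus Curcumin. BIRC5 in HTOXAR3 gave 15.50, 15.49 and 15.49 untreated, 15.11, 15.09 and 15.12 after OXA, and 14.72, 14.84 and 14.71 after OXA plus Curcumin. In both lines the 3 groups formed steps without overlap, untreated highest and OXA plus Curcumin lowest. BIRC5 changed by -0.40 and -0.39 after OXA (SE 0.05, limma BY adjusted p 0.000122 and 0.000301), and with Curcumin by -0.35 in HTOXAR3, while -0.19 in HT29 was not called.

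AURKB gave log2 intensities in HT29 of 10.62, 10.71 and 10.69 untreated, 10.43, 10.53 and 10.46 after OXA, and 10.07, 10.19 and 10.10 after OXA plus Curcumin. AURKB in HTOXAR3 gave 10.80, 10.80 and 10.80 untreated, 10.66, 10.80 and 10.57 after OXA, and 10.16, 10.33 and 10.06 after OXA plus Curcumin. The 3 arrays with Curcumin were lowest in each line without overlap, and the OXA arrays of HTOXAR3 reached up to the untreated level. Its changes on the addition of Curcumin were -0.35 and -0.49 (SE 0.07, limma BY adjusted p 0.0174 and 0.000624), and after OXA -0.20 and -0.12, neither called. The HT29 call of AURKB was lost without OXA replicate 2 or 3 (-0.32 and -0.36) or OXA plus Curcumin replicate 1 or 3 (-0.33 and -0.34), and with an offset of 0. CDCA8 (borealin) changed by -0.48 and -0.33 after OXA. INCENP, the scaffold, had the widest spread of the members, with untreated HT29 arrays from 10.98 to 11.65, and changed by -0.75 after OXA (SE 0.17) and -0.71 in the combination in HT29, while -0.51 and -0.43 in HTOXAR3 were not called. The OXA call of INCENP was lost without untreated replicate 1 or 2 (-0.70 and -0.60) or OXA replicate 1, 2 or 3 (-0.78, -0.72 and -0.73), and with an offset of 0. Its combination call was lost without untreated replicate 1 or 2 (-0.67 and -0.56) or OXA plus Curcumin replicate 1, 2 or 3 (-0.76, -0.67 and -0.70), and with an offset of 0 or 16 or slide as a block.

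The spindle checkpoint, which delays anaphase, has 5 members, and BUB1 and BUB1B were lower after OXA in both lines. In the combination 4 of the 5 were lower in each line, all but TTK, with medians of -0.49 and -0.33. BUB1B (BubR1), which inhibits the APC/C, gave log2 intensities in HT29 of 12.05, 11.91 and 12.14 untreated, 11.54, 11.67 and 11.66 after OXA, and 11.44, 11.45 and 11.55 after OXA plus Curcumin. BUB1B in HTOXAR3 gave 11.95, 12.03 and 12.13 untreated, 11.59, 11.60 and 11.68 after OXA, and 11.55, 11.44 and 11.46 after OXA plus Curcumin. Untreated arrays stood above all treated ones, and those with Curcumin were below those with OXA alone in HTOXAR3 and crossed them by 1 array in HT29. Its log2 change after OXA was -0.41 and -0.42 (SE 0.06, limma BY adjusted p 0.00131 and 0.00181), and with Curcumin -0.14 and -0.14, neither called. BUB1, the checkpoint kinase at the kinetochore, changed by -0.48 and -0.39 after OXA.

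MAD2L1 (MAD2), which captures CDC20, gave log2 intensities in HT29 of 12.55, 12.55 and 12.65 untreated, 12.35, 12.47 and 12.46 after OXA, and 12, 12.20 and 12.09 after OXA plus Curcumin. MAD2L1 in HTOXAR3 gave 12.57, 12.54 and 12.70 untreated, 12.41, 12.60 and 12.54 after OXA, and 12.26, 12.32 and 12.24 after OXA plus Curcumin. The arrays with Curcumin were the lowest in each line, and the OXA arrays overlapped the untreated ones in HTOXAR3 and stood under them in HT29. MAD2L1 changed by -0.33 with Curcumin in HT29 (SE 0.06, limma BY adjusted p 0.0189) and in the combination by -0.49 in HT29 and -0.33 in HTOXAR3, while -0.24 with Curcumin in HTOXAR3 was not called. The Curcumin call of MAD2L1 was lost without OXA replicate 2 or 3 (-0.31 and -0.32) or OXA plus Curcumin replicate 1 or 3 (-0.29 and -0.33), and with an offset of 0 or the processed signal. Its HTOXAR3 combination call was lost without untreated replicate 3 (-0.28) or OXA plus Curcumin replicate 3 (-0.31), and with an offset of 50 and 75th percentile scaling. BUB3, the partner of BUB1 and BUB1B, was lower in the combination (-0.35 and -0.33) while its second probe gave -0.25 and -0.10 there and was not called, and with the mean of all probes its HTOXAR3 call was lost. TTK (MPS1), the kinase that starts the checkpoint, was called in no comparison. Its combination change in HT29 was -0.26, under the 1.2-fold minimum, and became a call without untreated replicate 1 or 2 (-0.28 and -0.28) or OXA plus Curcumin replicate 1 or 2 (-0.27 and -0.28), and with an offset of 0 or 16, the processed signal or slide as a block.

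The kinetochore, which ties chromosomes to microtubules, has 7 members, with 4 lower after OXA in each line (CENPA, CENPE, CENPF and NUF2) and medians of -0.44 in HT29 and -0.27 in HTOXAR3. With Curcumin 1 and 4 were lower, and in the combination 5 and 6. CENPE, a motor that moves chromosomes to the spindle equator, gave log2 intensities in HT29 of 11.49, 11.33 and 11.50 untreated, 10.02, 10.00 and 10.18 after OXA, and 10.10, 10.16 and 10.05 after OXA plus Curcumin. CENPE in HTOXAR3 gave 11.43, 11.44 and 11.45 untreated, 10.56, 10.32 and 10.50 after OXA, and 10.35, 10.25 and 10.24 after OXA plus Curcumin. The untreated arrays stood far above the treated ones in each line, and the 2 treatments overlapped. The change of CENPE after OXA, -1.37 in HT29, was the deepest fall of any member in that comparison, and in HTOXAR3 it was -0.98 (SE 0.07, limma BY adjusted p 3.74e-09 and 4.72e-07). With Curcumin it gave 0.04 and -0.18, neither called. Its promoter run holds a pair of TTTAAA side by side and no CCAAT.

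CENPF, a coat protein of the outer kinetochore, gave log2 intensities in HT29 of 14.88, 14.74 and 14.91 untreated, 14.01, 14.04 and 14.10 after OXA, and 13.79, 13.94 and 13.97 after OXA plus Curcumin. CENPF in HTOXAR3 gave 15.00, 14.96 and 14.92 untreated, 14.58, 14.33 and 14.48 after OXA, and 14.28, 14.17 and 14.01 after OXA plus Curcumin. Untreated arrays lay above treated ones in both lines, and the arrays with Curcumin lay below those with OXA alone. CENPF changed by -0.79 and -0.50 after OXA (SE 0.08, limma BY adjusted p 7.1e-06 and 0.00151). With Curcumin its changes of -0.15 and -0.31 were not called, and the HTOXAR3 one became a call without OXA replicate 2 (-0.38) or OXA plus Curcumin replicate 1 (-0.37), and where dim probes were filtered out. Its second probe gave -0.48 after OXA in HTOXAR3, not called.

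CENPA, the histone that marks centromeres, gave log2 intensities in HT29 of 10.74, 10.76 and 10.78 untreated, 10.25, 10.30 and 10.21 after OXA, and 9.94, 10.15 and 10.09 after OXA plus Curcumin. CENPA in HTOXAR3 gave 10.91, 10.95 and 11.15 untreated, 10.44, 10.53 and 10.56 after OXA, and 10.06, 10.14 and 10.17 after OXA plus Curcumin. The 3 groups formed steps without overlap in both lines, from untreated down to OXA plus Curcumin. CENPA changed by -0.51 and -0.49 after OXA (SE 0.07, limma BY adjusted p 0.00017 and 0.000388). With Curcumin it changed by -0.39 in HTOXAR3, called by limma (BY adjusted p 0.00449), while -0.19 in HT29 was not called.

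NDC80, the microtubule-binding subunit of the complex named after it, gave log2 intensities in HT29 of 13.83, 13.84 and 13.85 untreated, 13.90, 13.89 and 13.93 after OXA, and 13.69, 13.73 and 13.70 after OXA plus Curcumin. NDC80 in HTOXAR3 gave 14.13, 14.07 and 14.07 untreated, 14.24, 14.22 and 14.13 after OXA, and 13.89, 13.85 and 13.81 after OXA plus Curcumin. OXA arrays stood above the untreated ones in HT29 and overlapped them in HTOXAR3, and the arrays with Curcumin lay below all others. NDC80 changed by -0.35 in HTOXAR3 with Curcumin (SE 0.04, limma BY adjusted p 0.000129), and gave -0.20 in HT29, under the fold minimum, and 0.07 and 0.11 after OXA, neither called. Of its partners, NUF2 changed by -0.44 and -0.27 after OXA, the latter lost without untreated replicate 3 (-0.23) and with 75th percentile scaling. SPC25 changed by -0.28 and -0.33 with Curcumin, and its HT29 call was lost without OXA replicate 1, 2 or 3 (-0.27, -0.26 and -0.29) or OXA plus Curcumin replicate 1 or 3 (-0.22 and -0.29), and with an offset of 0 or 16, the processed signal or slide as a block. SPC24 changed by -0.28 with Curcumin in HTOXAR3, a call lost without OXA replicate 1 or 2 (-0.30 and -0.23) or OXA plus Curcumin replicate 1, 2 or 3 (-0.30, -0.30 and -0.25), and with an offset of 0 or 16. Its second probe gave -0.33 there, not called, and 0.18 between the untreated lines, not called.

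The APC/C and separase, which end the attachment of sister chromatids, have 4 members, and CDC20 and PTTG1 were lower after OXA in both lines. With Curcumin 1 was lower in HT29 and 3 in HTOXAR3, and in the combination 3 and 4. CDC20, the activator of the APC/C, gave log2 intensities in HT29 of 12.40, 12.33 and 12.46 untreated, 11.80, 11.76 and 11.70 after OXA, and 11.68, 11.72 and 11.70 after OXA plus Curcumin. CDC20 in HTOXAR3 gave 12.48, 12.57 and 12.59 untreated, 12.11, 12.16 and 12.08 after OXA, and 11.93, 11.97 and 12.04 after OXA plus Curcumin. Untreated arrays stood above treated ones in both lines, and the treatments overlapped in HT29 and were apart in HTOXAR3. CDC20 changed by -0.64 and -0.42 after OXA (SE 0.05, limma BY adjusted p 3.65e-07 and 7.21e-05) and gave -0.05 and -0.14 with Curcumin, neither called. PTTG1 (securin), the inhibitor of separase, changed by -0.48 and -0.36 after OXA and by -0.29 with Curcumin in HTOXAR3, a call lost without OXA replicate 1 or 2 (-0.30 and -0.25) or OXA plus Curcumin replicate 1 or 3 (-0.30 and -0.27), and with an offset of 0 or the processed signal.

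UBE2C, the ubiquitin-conjugating enzyme of the APC/C, gave log2 intensities in HT29 of 14.59, 14.49 and 14.66 untreated, 14.41, 14.22 and 14.37 after OXA, and 14.15, 14.11 and 14.22 after OXA plus Curcumin. UBE2C in HTOXAR3 gave 14.68, 14.72 and 14.78 untreated, 14.69, 14.76 and 14.78 after OXA, and 14.40, 14.38 and 14.34 after OXA plus Curcumin. In HTOXAR3 the OXA arrays overlapped the untreated ones and the Curcumin arrays stood below both, and in HT29 the untreated arrays were highest and the treated groups overlapped. UBE2C changed by -0.37 with Curcumin in HTOXAR3 (SE 0.06, limma BY adjusted p 0.0021). Its OXA change in HT29, -0.25, was under the fold minimum and became a call without untreated replicate 2 (-0.29) or OXA replicate 1 (-0.28), and with 75th percentile scaling. ESPL1 (separase), which cuts cohesin, gave log2 intensities in HT29 of 11.96, 11.99 and 12.04 untreated, 12.05, 12.13 and 12.20 after OXA, and 11.66, 11.79 and 11.79 after OXA plus Curcumin. ESPL1 in HTOXAR3 gave 12.38, 12.40 and 12.43 untreated, 12.31, 12.24 and 12.47 after OXA, and 11.99, 11.99 and 11.83 after OXA plus Curcumin. The arrays with Curcumin lay below the other groups in both lines, and the OXA arrays stood above the untreated ones in HT29 and overlapped them in HTOXAR3. ESPL1 had the deepest fall with Curcumin among HT29 members called, -0.38, and changed by -0.41 in HTOXAR3 (SE 0.06, limma BY adjusted p 0.00699 and 0.00263). That HT29 call of ESPL1 was lost without OXA replicate 3 (-0.34) or OXA plus Curcumin replicate 1 (-0.34).

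The spindle motors and microtubule-binding proteins have 7 members, with 5 lower after OXA in HT29 and 4 lower and 1 higher in HTOXAR3, at medians of -0.39 and -0.32. With Curcumin 1 and 5 were lower, and in the combination 5 in each line, at a median of -0.70 in both. HMMR, which anchors microtubules at the poles, gave log2 intensities in HT29 of 13.62, 13.44 and 13.64 untreated, 12.60, 12.39 and 12.52 after OXA, and 12.45, 12.70 and 12.56 after OXA plus Curcumin. HMMR in HTOXAR3 gave 13.51, 13.51 and 13.48 untreated, 12.55, 12.31 and 12.53 after OXA, and 12.29, 12.33 and 12.26 after OXA plus Curcumin. Untreated arrays stood far above every treated array of the same line, and the 2 treatments overlapped in both. HMMR changed by -1.06 and -1.04 after OXA (SE 0.08, limma BY adjusted p 3.27e-07 and 1.12e-06), the deepest fall of a member in HTOXAR3. With Curcumin HMMR gave 0.07 and -0.17, neither called. Its promoter run holds TTTGAA and CCAAT several times each.

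KIF11 (Eg5), the motor that pushes spindle poles apart, gave log2 intensities in HT29 of 11.97, 12.06 and 12.08 untreated, 11.54, 11.67 and 11.74 after OXA, and 11.25, 11.42 and 11.35 after OXA plus Curcumin. KIF11 in HTOXAR3 gave 12.10, 12.10 and 12.13 untreated, 11.74, 11.80 and 11.82 after OXA, and 11.46, 11.39 and 11.39 after OXA plus Curcumin. The 3 groups formed steps without overlap in each line. KIF11 changed by -0.39 and -0.32 after OXA and by -0.31 and -0.37 with Curcumin (SE 0.06), all called by limma (BY), and by -0.70 and -0.70 in the combination. The Curcumin call of KIF11 in HT29 was lost without OXA replicate 2 or 3 (-0.30 and -0.26) or OXA plus Curcumin replicate 1 (-0.27), and with an offset of 0. Its OXA call in HTOXAR3 was lost with 75th percentile scaling.

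DLGAP5 (HURP), which stabilises the microtubules that hold chromosomes, gave log2 intensities in HT29 of 11.58, 11.45 and 11.38 untreated, 10.60, 10.66 and 10.52 after OXA, and 10.57, 10.68 and 10.61 after OXA plus Curcumin. DLGAP5 in HTOXAR3 gave 11.92, 11.94 and 11.86 untreated, 11.30, 11.21 and 11.25 after OXA, and 10.99, 10.93 and 10.91 after OXA plus Curcumin. Every HTOXAR3 group stood above the HT29 group of the same treatment, and the treatments overlapped in HT29 while in HTOXAR3 they formed steps. DLGAP5 changed by -0.88 and -0.65 after OXA (SE 0.06, limma BY adjusted p 7.28e-08 and 4.3e-06), and by -0.31 with Curcumin in HTOXAR3, while 0.02 in HT29 was not called. That Curcumin call of DLGAP5 was lost without OXA replicate 1 (-0.29) or OXA plus Curcumin replicate 3 (-0.29).

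KIF2C (MCAK), which takes microtubules apart at kinetochores, gave log2 intensities in HT29 of 14.12, 14.10 and 14.12 untreated, 14.23, 14.28 and 14.28 after OXA, and 14.06, 14.13 and 14.13 after OXA plus Curcumin. KIF2C in HTOXAR3 gave 14.23, 14.30 and 14.32 untreated, 14.56, 14.63 and 14.66 after OXA, and 14.23, 14.35 and 14.22 after OXA plus Curcumin. The OXA arrays stood above both other groups in each line, and those with Curcumin overlapped the untreated ones. KIF2C rose by 0.33 after OXA in HTOXAR3 (SE 0.04, limma BY adjusted p 0.000506), fell with Curcumin there at -0.35, and gave -0.02 in the combination. In HT29 its changes of 0.15 and -0.16 were not called. Its promoter run holds none of the letters searched, while its full promoter window holds 1 TTTAAA. ASPM, a protein of the spindle poles, changed by -0.58 and -0.54 after OXA and -0.78 and -0.92 in the combination. NUSAP1, which bundles microtubules at chromosomes, changed by -0.30 after OXA in HT29, a call lost without untreated replicate 3 (-0.29) or OXA replicate 2 (-0.26), and gave -0.26 in HTOXAR3, not called. KIF4A, a motor on chromosome arms, was called in no comparison, with 0.01 and 0.13 after OXA and -0.08 and -0.08 in the combination.

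The midzone and cytokinesis have 5 members, which did not move as one: after OXA KIF20A was lower and ECT2 higher in both lines, and ANLN, KIF23 and PRC1 were not called. With Curcumin 1 was lower in HT29 and 3 in HTOXAR3, and in the combination 2 and 4. KIF20A (MKLP2), a motor of the central spindle, gave log2 intensities in HT29 of 10.33, 10.39 and 10.65 untreated, 9.16, 9.27 and 9.30 after OXA, and 8.99, 9.06 and 9.14 after OXA plus Curcumin. KIF20A in HTOXAR3 gave 10.61, 10.64 and 10.81 untreated, 9.68, 9.70 and 9.74 after OXA, and 9.26, 9.23 and 9.26 after OXA plus Curcumin. The groups formed steps in both lines, with a wide gap under the untreated arrays and a narrower one under those with OXA alone. KIF20A changed by -1.22 and -0.98 after OXA and by -1.39 and -1.43 in the combination, the deepest falls there of any member (SE 0.08, limma BY adjusted p 9.61e-09 and 9.06e-09). With Curcumin it changed by -0.45 in HTOXAR3, while -0.18 in HT29 was not called. Its promoter run holds 1 TTTAAA and 2 CCAAT boxes.

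ECT2, the exchange factor that switches on RhoA at the cleavage site, gave log2 intensities in HT29 of 11, 10.94 and 11.01 untreated, 11.21, 11.34 and 11.42 after OXA, and 11.13, 11.09 and 11.04 after OXA plus Curcumin. ECT2 in HTOXAR3 gave 10.52, 10.61 and 10.87 untreated, 11.07, 11.23 and 11.16 after OXA, and 11.01, 10.98 and 10.98 after OXA plus Curcumin. The OXA arrays were the highest in each line, and those with Curcumin stood between them and the untreated ones without overlap. ECT2 rose by 0.34 and 0.49 after OXA (SE 0.08, limma BY adjusted p 0.0297 and 0.00187) and by 0.33 in the HTOXAR3 combination. Its HT29 call was lost without untreated replicate 1, 2 or 3 (0.34, 0.31 and 0.35) or OXA replicate 2 or 3 (0.33 and 0.29), and with an offset of 0 or 16 or the processed signal. Its combination call was lost without untreated replicate 1 or 2 (0.25 and 0.30) or OXA plus Curcumin replicate 1, 2 or 3 (0.32, 0.33 and 0.33), and with an offset of 0 or 16 or slide as a block. Its promoter run holds 1 TTTGAA and 2 CCAAT boxes.

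KIF23 (MKLP1), a motor of the central spindle, gave log2 intensities in HT29 of 14.41, 14.43 and 14.31 untreated, 14.35, 14.48 and 14.42 after OXA, and 14.14, 14.16 and 14.07 after OXA plus Curcumin. KIF23 in HTOXAR3 gave 13.98, 13.98 and 14.04 untreated, 13.93, 14.02 and 14.03 after OXA, and 13.63, 13.65 and 13.63 after OXA plus Curcumin. All HTOXAR3 arrays lay below the HT29 arrays of the same treatment, and in each line those with Curcumin were the lowest. KIF23 was the 1 member lower in untreated HTOXAR3, at -0.39 (SE 0.05, limma BY adjusted p 0.000151). It changed with Curcumin by -0.29 and -0.36, the first lost without OXA replicate 2 (-0.26). Its HT29 combination change of -0.26, under the fold minimum, became a call without untreated replicate 3 (-0.30) or OXA plus Curcumin replicate 1 or 2 (-0.27 and -0.28), and with 75th percentile scaling, the mean of all probes or slide as a block. Its second probe was called there at -0.49, and not in HTOXAR3 at -0.24.

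ANLN (anillin), the scaffold of the contractile ring, gave log2 intensities in HT29 of 10.93, 11.01 and 11.11 untreated, 10.97, 10.93 and 10.94 after OXA, and 10.74, 10.70 and 10.66 after OXA plus Curcumin. ANLN in HTOXAR3 gave 10.95, 11.03 and 11.21 untreated, 10.82, 10.95 and 10.99 after OXA, and 10.75, 10.69 and 10.73 after OXA plus Curcumin. The arrays with Curcumin were the lowest in each line, and the other 2 groups overlapped. ANLN changed by -0.31 and -0.34 in the combination (SE 0.07, limma BY adjusted p 0.0141 and 0.00727), the HT29 call being lost without untreated replicate 2 or 3 (-0.32 and -0.27) or OXA plus Curcumin replicate 2 or 3 (-0.32 and -0.29), and the HTOXAR3 call with the processed signal. PRC1, which crosslinks midzone microtubules, was lower with Curcumin in HTOXAR3 at -0.29, a call lost without OXA plus Curcumin replicate 3 (-0.25).

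Mitotic chromosome structure has 2 members, neither called after OXA in either line and both lower in the combination in each. TOP2A, the topoisomerase that untangles sister chromatids, gave log2 intensities in HT29 of 11.67, 11.69 and 11.89 untreated, 11.32, 11.52 and 11.56 after OXA, and 10.96, 11.22 and 11.12 after OXA plus Curcumin. TOP2A in HTOXAR3 gave 11.79, 11.64 and 12 untreated, 11.58, 11.64 and 11.61 after OXA, and 11.14, 11.07 and 10.87 after OXA plus Curcumin. The arrays with Curcumin were the lowest in both lines without overlap, while the OXA arrays reached the untreated range in HTOXAR3 only, by 1 array. TOP2A had the deepest fall with Curcumin in HTOXAR3, -0.58 (SE 0.10, limma BY adjusted p 0.0049), beside -0.37 in HT29, not called. Its combination changes were -0.64 and -0.78. Its promoter run holds 2 CCAAT boxes and no CHR form, while its full promoter window holds 2 TTTGAA and 4 CCAAT boxes.

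MKI67 (Ki-67), which coats mitotic chromosomes and marks cycling cells, gave log2 intensities in HT29 of 12.72, 12.54 and 12.55 untreated, 12.50, 12.20 and 11.89 after OXA, and 11.82, 11.82 and 11.77 after OXA plus Curcumin. MKI67 in HTOXAR3 gave 12.54, 12.48 and 12.52 untreated, 12.18, 12.12 and 12.23 after OXA, and 11.83, 11.94 and 11.44 after OXA plus Curcumin. The OXA arrays of HT29 spread widely and lay below the untreated ones, and the arrays with Curcumin were lowest in each line. MKI67 changed by -0.80 and -0.78 in the combination (SE 0.13, limma BY adjusted p 0.00128 and 0.00181), and gave -0.41 and -0.34 after OXA, neither called. In HT29 that became a call without OXA replicate 1 (-0.56). The 2 dimmer probes of MKI67 were called lower after OXA, at -0.76 and -0.72 in HT29 and -0.70 and -0.76 in HTOXAR3, and 1 of them with Curcumin in HT29 at -0.43. With the mean of all probes MKI67 was called lower after OXA in both lines. A further probe of a member differed in the call from the probe used in 15 comparisons and did not in 105.

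**Figure D2:**
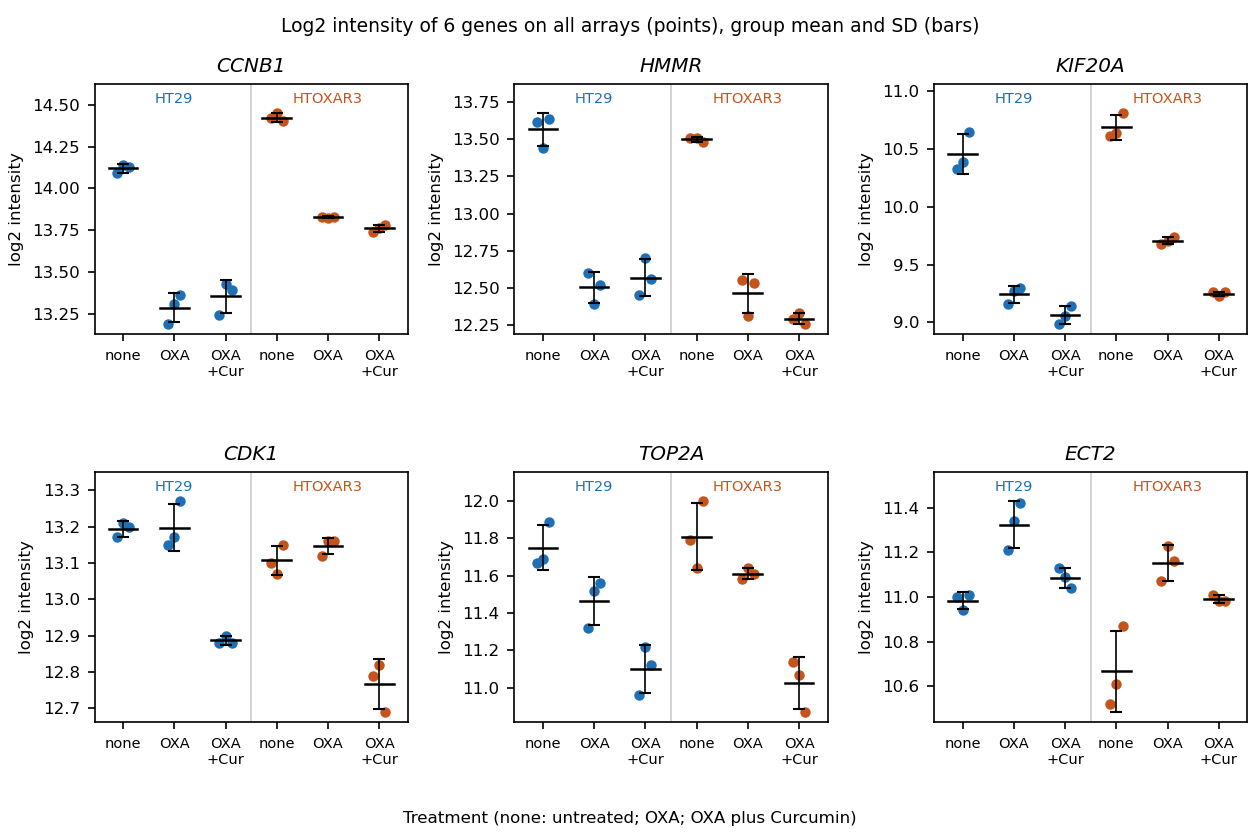
Log2 intensity of CCNB1, HMMR, KIF20A, CDK1, TOP2A and ECT2 in the 6 groups, with 1 point per array, the mean as a line and the SD of 3 arrays as a bar. CCNB1 and HMMR drop after OXA, KIF20A after OXA and, in HTOXAR3, again with Curcumin, CDK1 with Curcumin, and ECT2 is highest after OXA.

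The responses of the lines share no arrays and can be set against each other. After OXA, 22 members were lower in both lines, 91.7% of the HT29 list and 100% of the HTOXAR3 list. INCENP and NUSAP1, called in HT29, had changes below 0 in HTOXAR3. On the addition of Curcumin, 8 members were lower in both, 88.9% of the HT29 list and 34.8% of the HTOXAR3 list. Of the 15 called lower in HTOXAR3 alone, 14 had changes below 0 in HT29, and MAD2L1 was called in HT29 alone. In the combination, 32 were lower in both, 97% and 86.5% of the lists, and 0 members were called in opposite directions in any of these comparisons. The share of all gene names called lower in both lines was not counted, so these overlaps do not show more agreement than other genes have. Over the 45 members the Pearson correlation of the log2 changes in the lines was 0.94 for OXA, 0.73 for the addition of Curcumin and 0.90 for the combination (Spearman 0.93, 0.69 and 0.87). Over the 17455 gene names well above background it was 0.82, 0.78 and 0.86, and genes are not independent of one another.

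**Figure D3:**
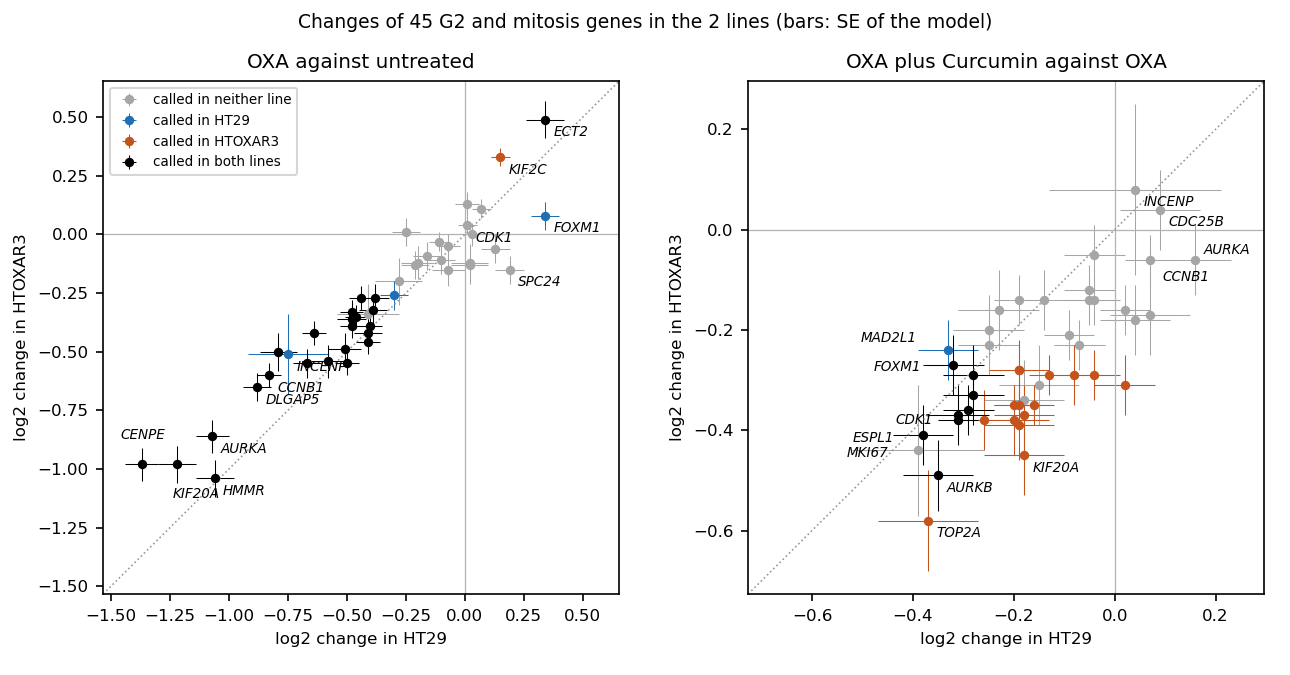
Log2 change of each of 45 members in HT29 (horizontal) and HTOXAR3 (vertical), after OXA (left) and on the addition of Curcumin (right), with SE bars and colours for the lines in which it was called. CENPE, KIF20A, AURKA and HMMR lie lowest after OXA in both lines, and most members lie below 0 in both panels.

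A difference between the lines was tested as the response in HTOXAR3 minus that in HT29, and limma (BY) called 0 of 45 members in any of the 3 responses. For OXA, limma (BY) called 0.947% of all gene names higher and 0.809% lower. At an unadjusted p below 0.05, 9 members lay above 0 and 2 below, beside 6.92% and 7.82% of all gene names, and BH called 1 higher and 1 lower, beside 2.05% and 2.28%. The median difference was 0.07. The 2 by BH were CENPE, at 0.40 (SE 0.09, limma BY adjusted p 0.261), from -1.37 in HT29 and -0.98 in HTOXAR3, and SPC24, at -0.34. For the addition of Curcumin, limma (BY) called 0.138% and 0.362% of all gene names. At an unadjusted p below 0.05, 14 members lay below 0 and 0 above, beside 5.95% and 4.81%, and BH called 1 lower and 0 higher, beside 1.28% and 0.688%. That 1 was DLGAP5 at -0.33 (SE 0.08, limma BY adjusted p 0.454), and the median difference was -0.12. For the combination, limma (BY) called 0.652% and 1.16%. At an unadjusted p below 0.05, 6 members lay below 0 and 0 above, beside 8.37% and 7.4%, and BH called 2 lower and 0 higher, beside 3.09% and 1.98%. These were SPC24 at -0.44 (SE 0.09, limma BY adjusted p 0.0695) and CCNB2 at -0.29, with a median difference of -0.02. In all 3 responses the members' BH counts were near the shares of all gene names. The unadjusted counts were above them for the addition of Curcumin below 0 (14 of 45 beside 5.95%) and for OXA above 0 (9 beside 6.92%). At any p, 37 member differences lay below 0 and 8 above for Curcumin. For OXA 11 lay below and 34 above, and for the combination 26 and 19. Members are not independent of one another, and these counts were not tested. The SPC24 difference in the combination was called where dim probes were filtered out or replicate number was a block, and in no other alternative with BY. The second probe of SPC24 gave -0.20 there and -0.21 for OXA, neither called. A p that misses the threshold does not show that the lines responded equally, and their OXA doses differed.

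Other genes of the same biology were counted for comparison. Of 60 other mitosis genes, such as condensin and further kinetochore subunits, 27 were lower and 9 higher after OXA in HT29, and 23 and 4 in HTOXAR3. With Curcumin 12 were lower in HT29 and 26 in HTOXAR3, and 0 higher in either by limma (BY) or BH, with 1 and 0 above 0 at an unadjusted p below 0.05. The combination had 35 lower and 2 higher in HT29, and 36 lower and 0 higher in HTOXAR3 by limma (BY), where BH called 37 lower and 0 higher and 3 lay above 0 at an unadjusted p below 0.05. Their medians were -0.19 and -0.15 after OXA, -0.19 and -0.27 with Curcumin, and -0.45 and -0.43 in the combination. Between the untreated lines 4 were higher and 6 lower, with HJURP at -0.71, and with CKAP2L at 0.70, a call lost in 9 of 15 alternatives, among them those without HT29 replicate 1 or 3 (0.68 and 0.65) or HTOXAR3 replicate 1 or 3 (0.56 and 0.65). The deepest fall was that of PIF1, a helicase, at -1.39 after OXA in HT29 and -1.09 in HTOXAR3, and CKS1B, a CDK-binding protein, rose by 0.57 in HT29 (0.39 to 0.60 over 15 alternatives). NCAPG, a condensin subunit, changed by -0.71 with Curcumin in HTOXAR3. The promoters of 52 of these genes held a CHR form in 65.4% and CCAAT in 65.4%.

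Of 38 S-phase replication genes, 10 were higher and 2 lower after OXA in HT29 and 4 and 4 in HTOXAR3, with medians of 0.14 and 0.12. With Curcumin 27 and 20 were lower, at medians of -0.39 and -0.28, and 0 were higher by limma (BY), by BH or at an unadjusted p below 0.05. MCM6, a helicase subunit, changed by -0.78 and -0.85 after OXA, and POLD1, a polymerase subunit, rose by 0.74 and 0.67. Beside them the G2 and mitosis members had lower medians after OXA (-0.39 and -0.27) and a shallower one with Curcumin in HT29 (-0.18). These gaps between lists were not tested. In the combination, 17 and 11 replication genes were lower and 1 higher in each line. Their promoters held a CHR form in 11.8% and CCAAT in 50%.

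Of 13 genes that inhibit CDK1 or arrest G2, 4 were higher and 3 lower after OXA in HT29, 6 and 2 in HTOXAR3, and in the combination 7 and 1, and 8 and 3. With Curcumin 5 were higher and 2 lower in HT29, and 5 and 1 in HTOXAR3, and the medians were 0.28 and 0.06. GADD45B, a stress gene of the growth-arrest family, rose by 1.78 and 1.40 after OXA and by 1.51 and 1.81 with Curcumin, which made 3.29 and 3.21 in the combination. BTG2, an antiproliferative gene, fell in HTOXAR3 at -1.86 in the combination, and WEE1, the kinase that holds CDK1 inactive, changed by -0.60 and -0.57 after OXA. CHEK2, a checkpoint kinase, was lower in untreated HTOXAR3 at -0.49.

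The DREAM and MuvB list has 16 genes, whose products repress or activate G2 promoters. After OXA 3 were higher and 3 lower in HT29, and 3 and 1 in HTOXAR3, with medians of -0.04 and 0.03. MYBL1 rose by 1.38 in HT29 and 1.2 in HTOXAR3, with ranges of 0.86 to 1.77 and 0.96 to 1.33 over 15 alternatives, and NFYB, a subunit of NF-Y, fell at -0.62 in HTOXAR3. With Curcumin 2 were higher and 3 lower in each line, with MYBL2, the B-Myb partner of MuvB, at -0.69 and -0.72 and TFDP2 at 0.67 and 1.09. In the combination 4 were higher in each line, and 5 lower in HT29 and 4 in HTOXAR3. Of 18 APC/C subunits and regulators, 4 were higher and 2 lower after OXA in HT29 and 2 were higher and 0 lower in HTOXAR3 by limma (BY) and BH, where 4 lay below 0 at an unadjusted p below 0.05. With Curcumin 1 was higher and 2 lower in HT29, and 4 were lower and 0 higher in HTOXAR3 by limma (BY), where BH called 0 higher and 3 lay above 0 at an unadjusted p below 0.05. In the combination 2 were higher and 5 lower in HT29, and 1 and 6 in HTOXAR3. FBXO5 (EMI1), an APC/C inhibitor, changed by -0.47 and -0.52 with Curcumin, the HT29 call being lost where only the groups of the comparison were fitted, and TRIP13, which remodels MAD2, by -0.54 and -0.52 in the combination (-0.63 to -0.42 and -0.57 to -0.37 over 15 alternatives).

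**Figure D4:**
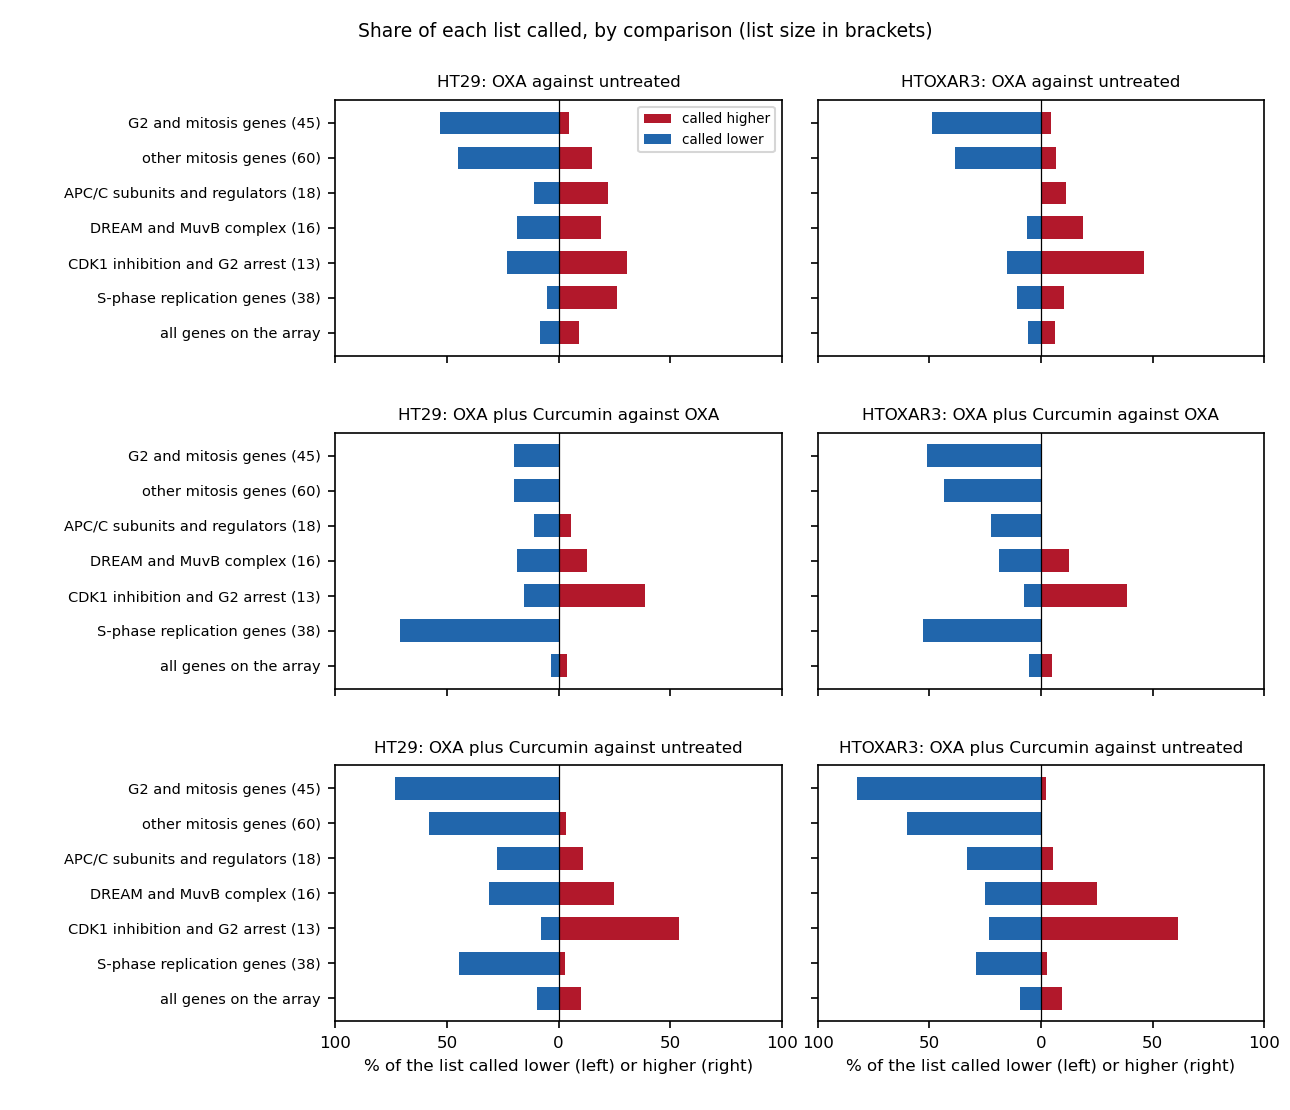
Percent of each list called lower (left) and higher (right) in 6 comparisons, for the 45 members, the other gene lists and all gene names. In HTOXAR3 after OXA plus Curcumin the members reach 37 of 45 called lower.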

How the data were processed

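Labelled RNA of each culture was hybridised to 1 one-colour array, and the authors deposited Feature Extraction files that give a mean spot intensity, a local background intensity and a processed intensity, not normalized between arrays. A second deposited file holds log2 values in 36204 lines without gene or probe names, with column medians of 6.48 to 6.49 and a lowest value of 5.65, beside a log2 of 5.64 for an offset of 50. Over all values its 50th, 75th and 95th percentiles were 6.48, 9.05 and 13.15, beside 6.51, 9.07 and 13.16 for an offset of 50 with the mean of all probes, and 6.59, 9.6 and 13.67 with the highest-mean probe used here. Its lines could not be joined to genes, and it was not used for any gene. From the spot files, normexp with an offset of 50 was run in R 4.3.3 with limma 3.58.1 on 62976 spots per array. Control spots (3951 positive and 308 negative) were then dropped, and quantile normalization was run on the 58717 other spots. Outlier spots were set missing, spots of a probe averaged, and the probe with the highest mean kept for the 8947 gene names with more than 1. limma fitted all 18 arrays of 6 groups in 1 model, with BY adjustment over all gene names. The p-values set each change against the spread between biological replicates, which limma estimated over all 6 groups and moderated across genes. The number of arrays limits the precision. Tables and figures used the packages data.table (version 1.17.8), jsonlite 2.0.0, Python 3.11.15, pandas 2.3.3 and matplotlib 3.10.9. The fit was tested on simulated data.

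The members and the gene lists were chosen with earlier results of these data known. Values on every array are given for 20 members, 1 to 3 per role, and for any member with the largest rise or fall among those called in a comparison. Other members are given by log2 change. From each other list (other mitosis genes, CDK1 inhibition and G2 arrest, DREAM and MuvB, APC/C subunits and regulators, S-phase replication), the largest rise and fall among its called genes could be named. Markers of colorectal epithelium and of other cell types were checked for signal above background. Arrays with the same replicate number were checked for pairing: every pair of deviations correlated above 0.1 for OXA in HT29 (0.166, 0.166 and 0.279) and Curcumin in HTOXAR3 (0.17, 0.102 and 0.103), where paired arrays also shared a slide, and not in the other comparisons. Alternatives tried were other offsets, other scaling, the processed signal, the mean of all probes, a filter on dim probes, BH adjustment, a 2-fold minimum, slide or replicate as a block, fits of only the groups compared, and leaving out each array.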

Additional observations from a re-analysis of the deposited data

Results flagged for a closer look

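Each of these genes belongs to a list beside the 45 members, and each response differed between the lines by limma's test of the difference (BY), taken as HTOXAR3 minus HT29. GADD45A, a growth-arrest gene, differed by 0.81 after OXA (BY adjusted p 0.0036), at -0.82 in HT29, called, and -0.01 in HTOXAR3, with HT29 means of 12.25 untreated and 11.43 after OXA and HTOXAR3 means of 11.78 and 11.77. PLK3, a stress-responsive polo-like kinase, differed by 0.63 after OXA (limma BY adjusted p 0.00155), at -0.35 in HT29 and 0.27 in HTOXAR3. Like the other genes flagged here, PLK3 was chosen after its values were seen. NFYA, a subunit of NF-Y, differed by 0.42 after OXA (limma BY adjusted p 0.00847), at -0.29 and 0.13. That HT29 change of NFYA ran from -0.32 to -0.11 over 15 alternatives, and its call was lost in 2. PLK2, another polo-like kinase, differed by 0.45 in the combination (limma BY adjusted p 0.0398), at 0.55 and 1.00. TFDP2, a partner of E2F, differed by 0.58 in the combination (limma BY adjusted p 0.0227), at 0.50 and 1.08. Over 21 alternatives the calls of GADD45A and PLK3 were lost in 0, that of NFYA in 1, that of PLK2 in 15 and that of TFDP2 in 10, with ranges of 0.71 to 0.89, 0.59 to 0.73, 0.38 to 0.47, 0.40 to 0.59 and 0.52 to 0.66. The PLK2 call was lost without HT29 untreated replicate 1 or 3 (0.42 and 0.43), any HT29 combination replicate (0.46, 0.41 and 0.47), any HTOXAR3 untreated replicate (0.43, 0.45 and 0.46) or HTOXAR3 combination replicate 1 or 3 (0.43 and 0.41). That of TFDP2 was lost without HT29 untreated replicate 2 or 3 (0.54 and 0.59), HT29 combination replicate 2 or 3 (0.56 and 0.55), HTOXAR3 untreated replicate 3 (0.52) or HTOXAR3 combination replicate 1 or 3 (0.56 and 0.56). The lines received different OXA doses, and the dose and the line cannot be told apart.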

How the results depend on the processing

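No member changed sign where it was called, under any alternative run. A 2-fold minimum left 0 members called between the untreated lines, 4 and 1 after OXA in HT29 and HTOXAR3, 0 and 0 with Curcumin, and 2 and 3 in the combination, from 5, 26, 24, 9, 23, 33 and 38, by construction. An offset of 0 left 4 called with Curcumin in HT29, and fits of only the groups compared, which have fewer arrays to estimate the spread, left 0 there by limma (BY) and 14 with Curcumin in HTOXAR3. Over all gene names these settings called 867 and 148 lower in HT29, and 1138 and 410 higher. The settings used here called 1164 lower and 1406 higher there. In HTOXAR3, fits of only the groups compared called 1394 lower and 1444 higher, against 1988 and 1861. For the differences between the lines BH called 2, 1 and 2 members, and the filter on dim probes called 1 in the combination. With replicate number as a block, 1 member, SPC24, was called for the difference in the combination, 26 and 23 were still counted for OXA in HT29 and Curcumin in HTOXAR3, and no other call changed. With 1 array left out, counts ran from 5 to 8 between the lines, 3 to 9 with Curcumin in HT29 and 15 to 21 with Curcumin in HTOXAR3, from 23 to 27 and 22 to 24 after OXA, and from 31 to 34 and 36 to 37 in the combination. The causes were not tested where none is named.

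Of 450 member values, calls lost and gained were 14 and 1 with an offset of 0, 8 and 1 with 16, 9 and 5 with the processed signal, 5 and 5 with 75th percentile scaling, 2 and 3 with the mean of all probes, 0 and 4 with the dim filter, 3 and 3 with slide as a block, and 33 and 1 with only the groups compared. Of 3510 values with 1 array left out, 83 calls were lost, 18 gained and 0 reversed. The authors' table was not run as an alternative, since its lines carry no names. Signal over background limits no member, since all were well above it on every array.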
